A study of Mus musculus with 6 samples.

Results

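The genes described here mark the vessels of inguinal white fat, the subcutaneous depot of the groin. They comprise 40 genes of 18193 measured, chosen by name: 22 of blood endothelium, 3 used for lymphatic endothelium, 5 secreted ligands that act on vessels and 10 of mural cells, which are the pericytes and smooth muscle cells around vessels. Where several probe sets were annotated to a gene and to no other, the brightest on average stood for it, and all 40 genes had one. RNA came from 3 Naa10-knockout (Naa10-KO) and 3 wild-type (WT) male mice, each hybridised to an array of its own. Naa10 encodes the catalytic part of an enzyme that acetylates protein N-termini. The sources used here do not give the design of the knockout. Mice of both genotypes began a diet in which fat supplied 60% of calories at the age of 6 weeks and stayed on it for 15 weeks. Both then spent 4 h at 4 °C before dissection, so no group on another diet or at another temperature enters the comparison.

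Fat is dense in capillaries, whose endothelial cells pass fatty acids from the blood to adipocytes. Vessel growth is driven by VEGF ligands acting on the receptors encoded by Kdr, Flt1 and Flt4, and vessels are stabilised by angiopoietins acting on Tek. Endothelial cells recruit pericytes by secreting PDGF-B, which binds the receptor encoded by Pdgfrb, and smooth muscle contracts when myosin light chain kinase, encoded by Mylk, phosphorylates myosin. Vessels of brown and beige fat are known to grow with prolonged cold, and the values below are those of a short exposure.

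All values are log2 signals. Detection calls were not used, and low signal is judged here against 5.86, the median over every probe set and array. Of the 40 vessel genes, 34 lay above that mark on all 6 arrays, 3 (Tie1, Prox1 and Cnn1) lay below it on all 6, and the other 3 (Dll4, Flt4 and Lmod1) lay on both sides. White adipocyte markers had list means of 13.45 to 13.74 on Naa10-KO arrays and 13.59 to 13.98 on WT arrays. Brown and beige adipocyte markers had list means of 9.36 to 9.88 on Naa10-KO arrays and 7.96 to 8.46 on WT arrays. Their median difference was 0.44, with 9 means higher and 3 lower, and the largest difference, 6.17, weighs on the list means. Of these 12 markers, 6 were higher on all Naa10-KO arrays, against 10% of all genes, and 1 (Fabp3) was called higher, against 0.0879% of all genes, by limma at an adjusted p of 0.05. Skeletal muscle markers had list means of 11.03 to 11.27 on Naa10-KO arrays and 5.13 to 8.29 on WT arrays, and none was under 5.86 on all arrays. Means were higher in Naa10-KO fat for 20 of 20 muscle markers, 18 of them with no overlap, against 10% of all genes, and 1 (Pvalb) was called higher, against 0.0879%. The part of the muscle and of the brown and beige adipocyte signals in the vessel values was not tested. Nor was the part of the muscle signal in the values of Fabp3 and the other brown and beige markers. Whole fat was measured, so a difference in the number of vessel cells and a difference in RNA per cell cannot be told apart.

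None of the 40 vessel genes passed the test between genotypes. With limma and a threshold of 0.05 on p adjusted over all genes, there were 0 higher and 0 lower calls in Naa10-KO fat, against 0.115% of all genes called in either direction (0.0879% higher and 0.0275% lower). At an unadjusted p of 0.05, 3 were higher (Pecam1, Flt1 and Flt4), against 4.85% of all genes, and 3 were lower (Mylk, Prox1 and Cnn1), against 4.35% of all genes. Together these are 15% of the 40, against 9.20% of all genes. Arrays of the genotypes did not overlap for 10 of the 40, with 5 higher and 5 lower in Naa10-KO fat, or 25% against 18.1% of all genes (10% higher and 8.14% lower). Adjusted p-values of the 40 lay between 0.368 for Mylk and 0.996 for Vwf. With trend and robust options in limma, Mylk alone of the 40 passed, and it fell in Naa10-KO fat under those options (adjusted p = 0.0191, against 0.119 to 0.614 over the other alternatives). Differences were under 1.5-fold for 35 of the 40 genes, or 87.5%, against 73.9% of all genes. These shares were not matched for signal: 4929 of the 18193 genes lay under 5.86 on all 6 arrays, against 3 of the 40. For 28 of the 40 genes the 95% interval of the difference stayed within 1 log2 unit of 0.

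**Figure D1:**
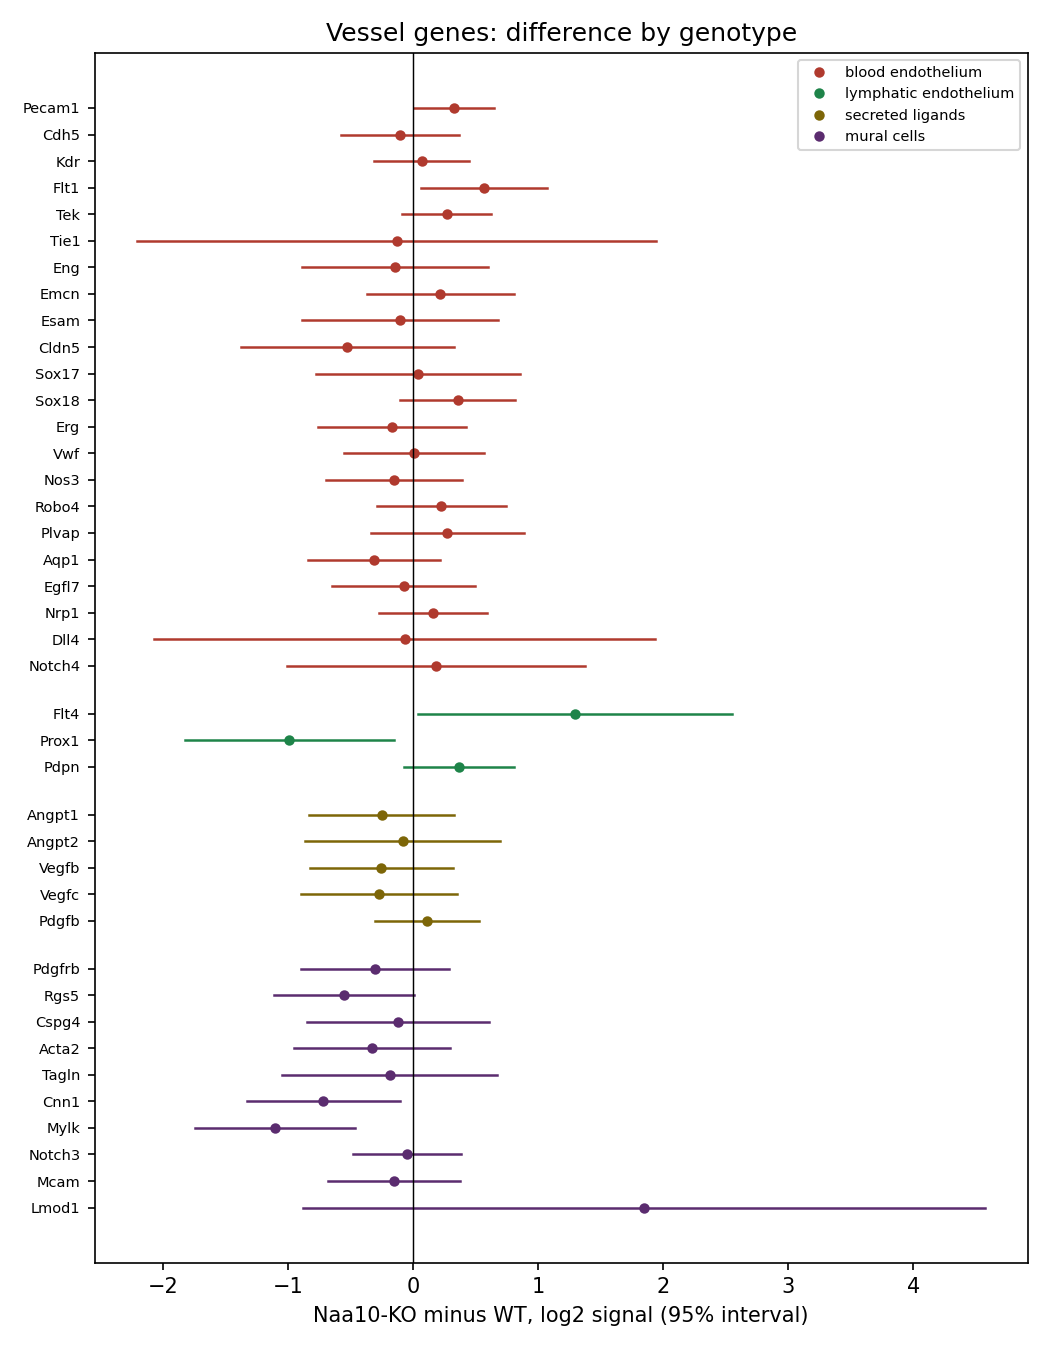
Each point is the Naa10-KO minus WT difference of a vessel gene on the log2 scale, with its 95% interval from limma, coloured by group and listed from blood endothelium at the top to mural cells at the bottom. Blood endothelial points lie between -0.53 and 0.57, and 9 of the 10 mural points lie left of 0, with Mylk at -1.11 and the low-signal gene Lmod1 at 1.85 at the ends.

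Blood endothelial genes lay on both sides of 0. Means were higher in Naa10-KO fat for 12 of 22 and lower for 10, the median difference was 0.022, and that of all genes was 0.013. Pecam1, the junctional adhesion protein CD31, was at 7.81, 7.95 and 7.94 in Naa10-KO fat, against 7.59, 7.56 and 7.56 in WT fat. The Naa10-KO arrays of Pecam1 lay above all WT arrays by a small margin (log2 difference 0.33, SE 0.13, 1.26-fold, limma adjusted p = 0.540). Cdh5, which encodes VE-cadherin of the same junctions, was at 8.51, 8.64 and 8.11 in Naa10-KO fat, against 8.45, 8.61 and 8.53 in WT fat. Its groups overlapped, and the difference of -0.11 had a 95% interval of -0.58 to 0.36. The sign of Cdh5 turned without Naa10-KO replicate 3 (0.048), with the mean of all its probe sets (0.27) and on its second, low-signal probe set (0.64). Neither of these general endothelial markers passed the test.

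Among receptors for VEGF and angiopoietins, Flt1 and Tek were higher on all Naa10-KO arrays, and neither passed the test. Flt1, the high-affinity VEGF receptor that also occurs as a soluble decoy, was at 8.47, 8.44 and 8.21 in Naa10-KO fat, against 7.79, 7.52 and 8.10 in WT fat. All 3 Naa10-KO arrays of Flt1 lay above the WT arrays (log2 difference 0.57, SE 0.20, 1.48-fold, adjusted p = 0.522). The other 3 probe sets of Flt1 had differences of 0.26 to 0.86, each with overlapping groups. Kdr, the main signalling receptor for VEGF, differed by 0.066 with a 95% interval of -0.32 to 0.45. Tek, the angiopoietin receptor, was at 9.77, 9.93 and 9.74 in Naa10-KO fat, against 9.66, 9.44 and 9.54 in WT fat. These Tek values did not overlap, and the difference was 0.27 (SE 0.14, adjusted p = 0.607). Tie1, the partner receptor of Tek, had low signal on all arrays and differed by -0.13 with a standard error of 0.82. Nrp1, a co-receptor of VEGF that other cells of fat also express, differed by 0.16, and its 3 other probe sets by -0.11 to 0.01.

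The upstream window of Flt1 is shown because Flt1 had the smallest unadjusted p of the blood endothelial genes. The window covers chr5:147726012-147726261 on the minus strand of GRCm38.p6, the 250 bases before the RefSeq start. Capitals mark the TATA box motif TATAAA, the ETS core motif GGAAGT, of the kind that Erg binds, and the GC box motif GGGCGG, each searched on both strands.
Flt1: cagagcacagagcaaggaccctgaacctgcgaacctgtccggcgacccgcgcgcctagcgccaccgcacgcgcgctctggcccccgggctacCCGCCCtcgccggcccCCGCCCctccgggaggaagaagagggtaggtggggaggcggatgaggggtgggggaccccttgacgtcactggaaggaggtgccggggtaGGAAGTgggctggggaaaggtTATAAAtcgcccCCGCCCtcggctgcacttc
In this sequence TATAAA begins 31 bases and GGAAGT 52 bases before the start, and the GC box, found on the opposite strand, begins at 158, 142 and 19 bases. Over the 32851 windows of the table, 12.4% hold the TATA motif, 19.7% the ETS core and 32.7% the GC box. Of the 32 windows that belong to 27 of the vessel genes, 3 hold the TATA motif, 6 the ETS core and 17 the GC box. The 6 windows with the ETS core, 18.8% of the 32, were those of Egfl7, Eng, Flt1, Kdr and Tie1. All are of blood endothelium, to which 18 of the 32 windows belong. These matches describe the letters and do not show binding.

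Transcription factors of endothelium did not pass the test. Sox18, a factor of blood and lymphatic endothelium, averaged 8.20 ± 0.21 in Naa10-KO fat and 7.85 ± 0.18 in WT fat (SD, n = 3 each). Its difference of 0.35 did not pass (limma adjusted p = 0.603). Erg, the ETS factor that maintains endothelial identity, differed by -0.17, and Sox17, a factor of arterial endothelium, by 0.038. A second Sox17 probe set gave -0.25, the opposite sign.

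Of the barrier and transport genes, Aqp1 had arrays that did not overlap, and none passed the test. Cldn5, the claudin of endothelial tight junctions, averaged 10.05 ± 0.51 in Naa10-KO fat and 10.58 ± 0.38 in WT fat, with a difference of -0.53 (limma adjusted p = 0.659). Without Naa10-KO replicate 1 the Cldn5 difference was -0.26, and without WT replicate 1 it was -0.31. Aqp1, a water channel of capillary endothelium and red cells, was at 10.50, 10.53 and 10.49 in Naa10-KO fat, against 11.20, 10.54 and 10.72 in WT fat. The Naa10-KO arrays of Aqp1 lay just below the lowest WT array (log2 difference -0.32, adjusted p = 0.667), and without WT replicate 1 the difference was -0.13. Plvap, which forms the diaphragms of fenestrae and caveolae, differed by 0.27, Emcn, a sialomucin of capillaries and veins, by 0.22 and Robo4, an endothelial guidance receptor, by 0.22. Esam, an adhesion molecule of tight junctions, differed by -0.11 and Eng, the co-receptor endoglin, by -0.15, while the second probe set of Eng gave 0.32.

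Secreted and signalling products of endothelium did not pass the test. Vwf, the clotting factor stored in endothelial granules, had a mean of 8.05 in Naa10-KO fat and 8.04 in WT fat, with a 95% interval of the difference of -0.55 to 0.56. Nos3, which makes the vasodilator nitric oxide, differed by -0.16, with an interval of -0.70 to 0.39. Egfl7, a factor secreted by endothelium, differed by -0.08, and 2 of its 3 other probe sets gave -0.07 and -0.23. Its last probe set was at 6.05, 4.63 and 6.02 in Naa10-KO fat, against 6.78, 6.85 and 6.84 in WT fat. That probe set had no overlap and a difference of -1.26, but did not pass over all probe sets (limma adjusted p = 0.584). Of the Notch genes, Notch4, the endothelial receptor, differed by 0.18 with an interval of -1.01 to 1.37. Dll4, a ligand of arterial and sprouting cells, differed by -0.07 at low signal, and its second probe set by 1.21, both with overlapping groups.

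Genes used for lymphatic endothelium had mean differences of both signs, none of which passed, and arrays of the genotypes did not overlap for any of the 3, against 18.1% of all genes without overlap. Flt4, the receptor for VEGF-C on lymphatic vessels, was at 6.69, 6.83 and 6.67 in Naa10-KO fat, against 6.41, 4.47 and 5.41 in WT fat. Naa10-KO arrays of Flt4 were closely grouped and WT arrays were spread, 2 of them under 5.86. The log2 difference was 1.30 (SE 0.50, 2.46-fold, adjusted p = 0.540), and 0.69 when values under 5.86 were set to it. Without WT replicate 2 the Flt4 difference was 0.82, and without WT replicate 1 it was 1.79. A second Flt4 probe set overlapped, with a difference of 0.21. Prox1, the transcription factor that specifies lymphatic endothelium, was at 3.61, 3.21 and 4.32 in Naa10-KO fat, against 4.74, 4.41 and 4.96 in WT fat. All 6 of these Prox1 values were under 5.86, and the difference of -0.99 (SE 0.33, adjusted p = 0.503) is one between low signals. Its 2 other probe sets gave -1.03 and -0.54, each with overlapping groups.

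Pdpn, podoplanin, is a lymphatic marker that fibroblasts and epithelium also make. It was at 10.48, 10.35 and 10.04 in Naa10-KO fat, against 9.99, 9.79 and 9.99 in WT fat. Naa10-KO arrays of Pdpn were all higher (log2 difference 0.37, SE 0.17, adjusted p = 0.587). Lyve1, a hyaluronan receptor of lymphatic vessels and of some macrophages, was at 10.84 ± 0.73 in Naa10-KO fat and 10.36 ± 0.36 in WT fat, and its groups overlapped. Among 10 measured genes of a second lymphatic list, 0 passed, against 0.115% of all genes, and 7 means were higher and 3 lower. Macrophage markers had list means of 9.69 to 9.87 on Naa10-KO arrays and 10.03 to 10.14 on WT arrays. Of these 12 markers, 6 had higher and 6 lower means in Naa10-KO fat, with a median difference of -0.010. The lowest of their differences, -2.80, weighs on the list means. The part of macrophage RNA in the Lyve1 and Fgl2 values was not tested. In the second lymphatic list Fgl2, which macrophages also express, differed by 0.75 and Itga9, an integrin of lymphatic valves, by -0.50. Lymphocyte markers, which lymph nodes in this depot would carry, had list means of 5.37 to 7.39 on Naa10-KO arrays and 6.03 to 7.30 on WT arrays.

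**Figure D2:**
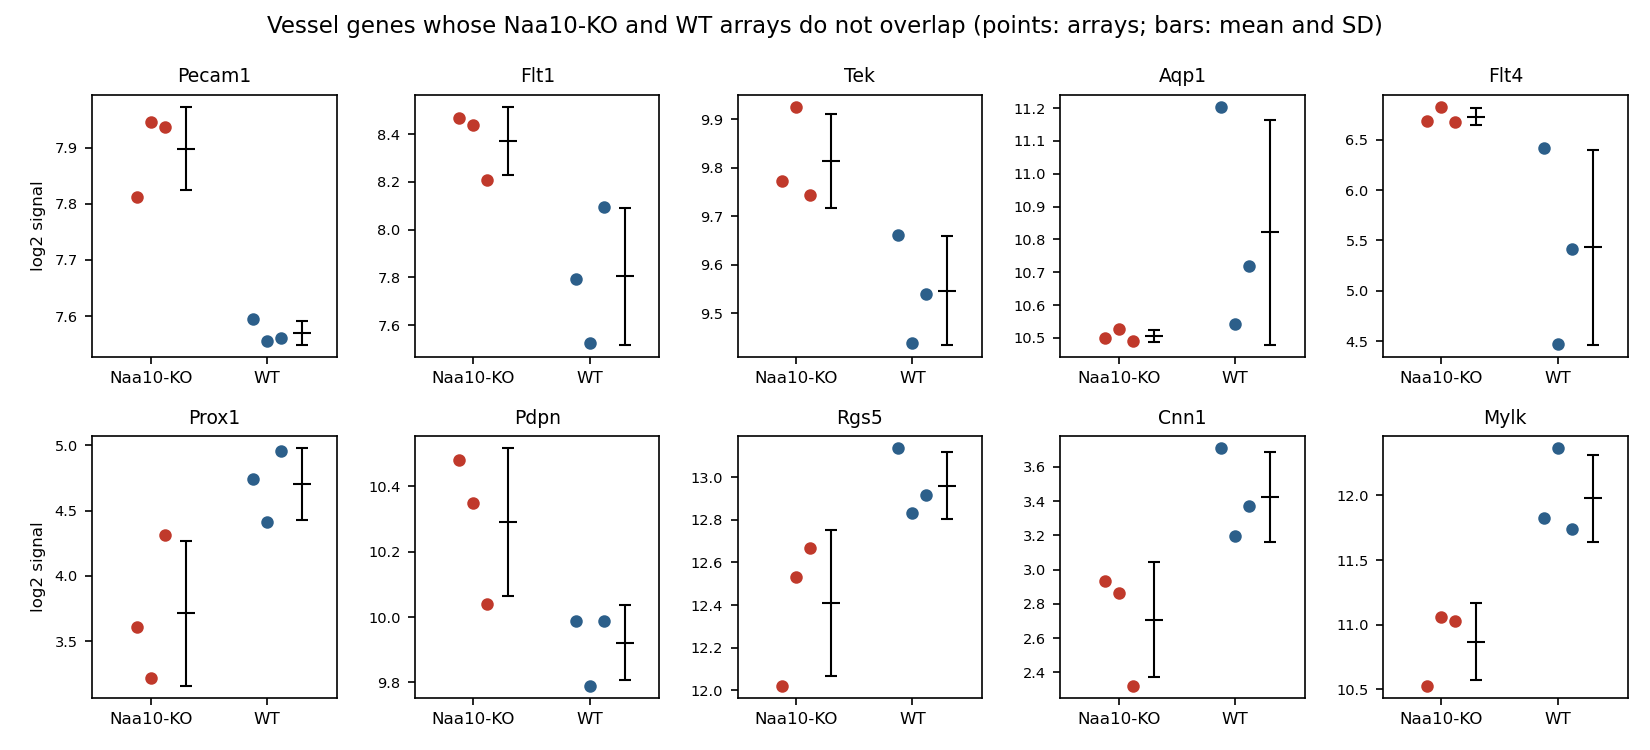
Log2 signals of the 10 vessel genes whose arrays do not overlap between genotypes, with points for single arrays, Naa10-KO left and WT right, and bars for the mean and SD of n = 3. Pecam1, Flt1, Tek, Flt4 and Pdpn are higher and Aqp1, Prox1, Rgs5, Cnn1 and Mylk lower on all Naa10-KO arrays, with Prox1 and Cnn1 at low signal throughout.

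All 5 ligands that act on vessels overlapped between genotypes. Vegfb, a ligand of Flt1 abundant in oxidative tissues, averaged 9.36 ± 0.30 in Naa10-KO fat and 9.62 ± 0.24 in WT fat, with a difference of -0.25 and a 95% interval of -0.83 to 0.32. Vegfc, the ligand of Flt4, differed by -0.27, and its 2 other probe sets by -0.22 and -0.55. Angpt1, the agonist of Tek made by mural and stromal cells, differed by -0.25, and its second probe set by -0.33. Angpt2, which endothelium releases and which can oppose Angpt1, differed by -0.08, and Pdgfb by 0.11. All 5 genes lay above 5.86 on all arrays, and all 5 intervals stayed within 1 log2 unit of 0. Vegfa, the main driver of vessel growth in adipose tissue, was at 10.44, 9.69 and 9.44 in Naa10-KO fat, against 9.53, 9.89 and 10.11 in WT fat. Its groups overlapped and the difference was 0.012 (SE 0.32).

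Mural genes had lower means in Naa10-KO fat for 9 of 10, against 48.6% of all genes, with a median difference of -0.25. None passed, and 3 of the 10 (Mylk, Rgs5 and Cnn1) were lower on all Naa10-KO arrays, or 30% against 8.14% of all genes with no overlap in that direction. Without Naa10-KO replicate 1 the median was -0.10 with 8 of 10 lower, and without Naa10-KO replicate 2 it was -0.44. Without WT replicate 1 it was -0.14, and with array weights it was also -0.14. Naa10-KO replicate 1 held the lowest value of 6 of the 10 genes. The Gapdh control probe sets, whose 3′ over 5′ excess grows as RNA degrades, differed by 0.55 log2 units there and by -0.27 to 0.012 on the remaining arrays. Those of β-actin stood less apart, at 2.07 there and 1.42 to 1.85 on the remaining arrays. The part of RNA quality in the mural values was not tested.

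**Figure D3:**
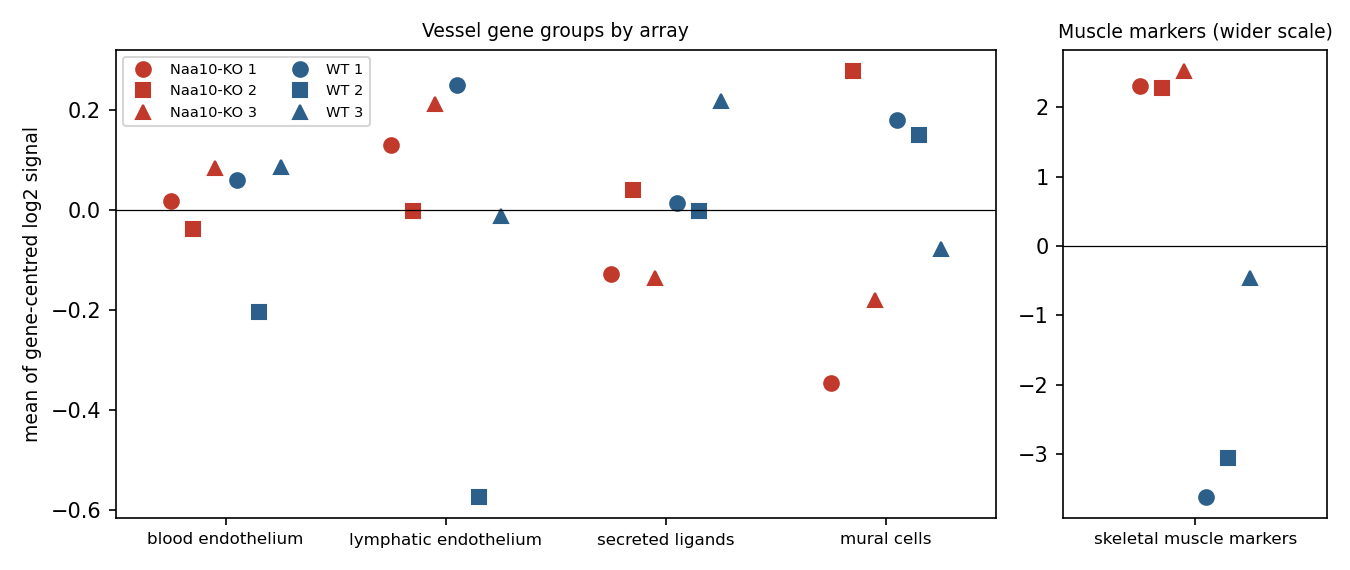
Each point is the mean, for an array, of the gene-centred log2 signals of a vessel gene group, with Naa10-KO in red left of WT in blue and the skeletal muscle markers at right on a wider scale. Vessel groups overlap between genotypes, with mural means from -0.35 to 0.28 on Naa10-KO arrays and -0.08 to 0.18 on WT arrays. The overlap of the mural means rests on the low-signal gene Lmod1, at 6.82 on Naa10-KO replicate 2 and 1.79 on WT replicate 3. Muscle means are 2.28 to 2.52 on Naa10-KO arrays and -3.61 to -0.45 on WT arrays.

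Mylk, myosin light chain kinase of smooth muscle, had the smallest p of the 40 genes. Its signals were 10.53, 11.06 and 11.03 in Naa10-KO fat, against 11.82, 12.37 and 11.74 in WT fat. All Naa10-KO arrays of Mylk lay below all WT arrays, and the means were 10.87 ± 0.30 in Naa10-KO fat and 11.98 ± 0.34 in WT fat (SD, n = 3 each). The log2 difference was -1.11 (SE 0.26, 95% interval -1.75 to -0.46, unadjusted p = 0.00631, limma adjusted p = 0.368), a level 2.15-fold higher in WT. A second Mylk probe set was at 9.33, 10.38 and 10.44 in Naa10-KO fat, against 11.28, 11.85 and 11.06 in WT fat, again with no overlap and with a difference of -1.35. Another Mylk probe set, at lower signal, differed by -2.32 with overlapping groups. With each array left out in turn the Mylk difference lay between -1.22 and -0.91.

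Rgs5, a regulator of G protein signalling abundant in pericytes, was at 12.02, 12.53 and 12.67 in Naa10-KO fat, against 13.14, 12.83 and 12.91 in WT fat. Naa10-KO arrays of Rgs5 were all lower (log2 difference -0.55, SE 0.22, adjusted p = 0.542). Its 3 other probe sets gave -0.58, -0.37 and -0.33, and 1 of them had no overlap. Without Naa10-KO replicate 1 the Rgs5 difference was -0.36.

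Windows of Mylk and Rgs5 are shown because these mural genes stood apart between genotypes at signals above 5.86. The window of Mylk is chr16:34784700-34784949 and that of Rgs5 chr1:169655251-169655500, both on the plus strand of GRCm38.p6 and both the 250 bases before the RefSeq start.
Mylk: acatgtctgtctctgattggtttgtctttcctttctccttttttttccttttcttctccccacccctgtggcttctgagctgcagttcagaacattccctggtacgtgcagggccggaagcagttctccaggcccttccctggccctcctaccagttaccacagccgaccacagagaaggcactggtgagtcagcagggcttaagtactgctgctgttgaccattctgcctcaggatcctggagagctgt
Rgs5: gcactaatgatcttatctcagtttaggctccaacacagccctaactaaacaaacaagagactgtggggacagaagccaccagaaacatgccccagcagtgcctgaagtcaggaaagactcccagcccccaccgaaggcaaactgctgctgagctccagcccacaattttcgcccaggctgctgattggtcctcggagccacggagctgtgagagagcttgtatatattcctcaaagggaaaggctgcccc
Neither window holds the TATA motif, the ETS core, the GC box or the CArG box, the site of serum response factor in many smooth muscle genes, so no letters are in capitals. The CArG box was searched as CCWWWWWWGG, with W for A or T, and looser forms were not searched. It was found in 1.47% of the 32851 windows and in 0 of the 8 windows that belong to mural genes. At so low a share, 8 windows are too few to show whether mural genes differ. Tagln and Pdgfrb had no window.

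Other contractile genes of mural cells varied. Acta2, smooth muscle α-actin, was at 14.17, 14.96 and 14.68 in Naa10-KO fat, against 14.78, 14.89 and 15.12 in WT fat. These groups overlapped through Naa10-KO replicate 2, with a difference of -0.33 and a 95% interval of -0.95 to 0.29. Without Naa10-KO replicate 1 the Acta2 difference was -0.11, and without Naa10-KO replicate 2 it was -0.51. A second Acta2 probe set, at lower signal, was at 5.89, 7.15 and 6.67 in Naa10-KO fat, against 7.85, 8.26 and 7.60 in WT fat. That probe set had no overlap and a difference of -1.33 (adjusted p = 0.542 over all probe sets), while its last probe set, under 5.86 on all arrays, gave 0.48. Tagln, the actin-binding protein SM22, differed by -0.19, and without Naa10-KO replicate 1 by 0.15. Cnn1, smooth muscle calponin, was at 2.93, 2.86 and 2.32 in Naa10-KO fat, against 3.71, 3.19 and 3.37 in WT fat. Although Cnn1 arrays did not overlap (log2 difference -0.72, adjusted p = 0.506), all lay far under 5.86. Lmod1, an actin nucleator of smooth muscle, was the only mural gene with a higher mean in Naa10-KO fat. Its difference of 1.85 had a standard error of 1.08, 5 of its 6 arrays were under 5.86, and setting those to 5.86 gave a difference of 0.32.

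Receptors and surface markers of mural cells overlapped between genotypes. Pdgfrb, the PDGF-B receptor, was at 9.87, 10.32 and 10.18 in Naa10-KO fat, against 10.77, 10.10 and 10.42 in WT fat. Its groups overlapped, the difference was -0.31 with an interval of -0.90 to 0.29, and a second probe set gave -0.02. Notch3, the Notch receptor of arterial smooth muscle, differed by -0.05, Cspg4, the proteoglycan NG2, by -0.12 and Mcam, the adhesion protein CD146, by -0.15. Over all probe sets of mural genes, 18 of 20 had lower means in Naa10-KO fat, but several probe sets report the same transcripts and are not independent.

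**Figure D4:**
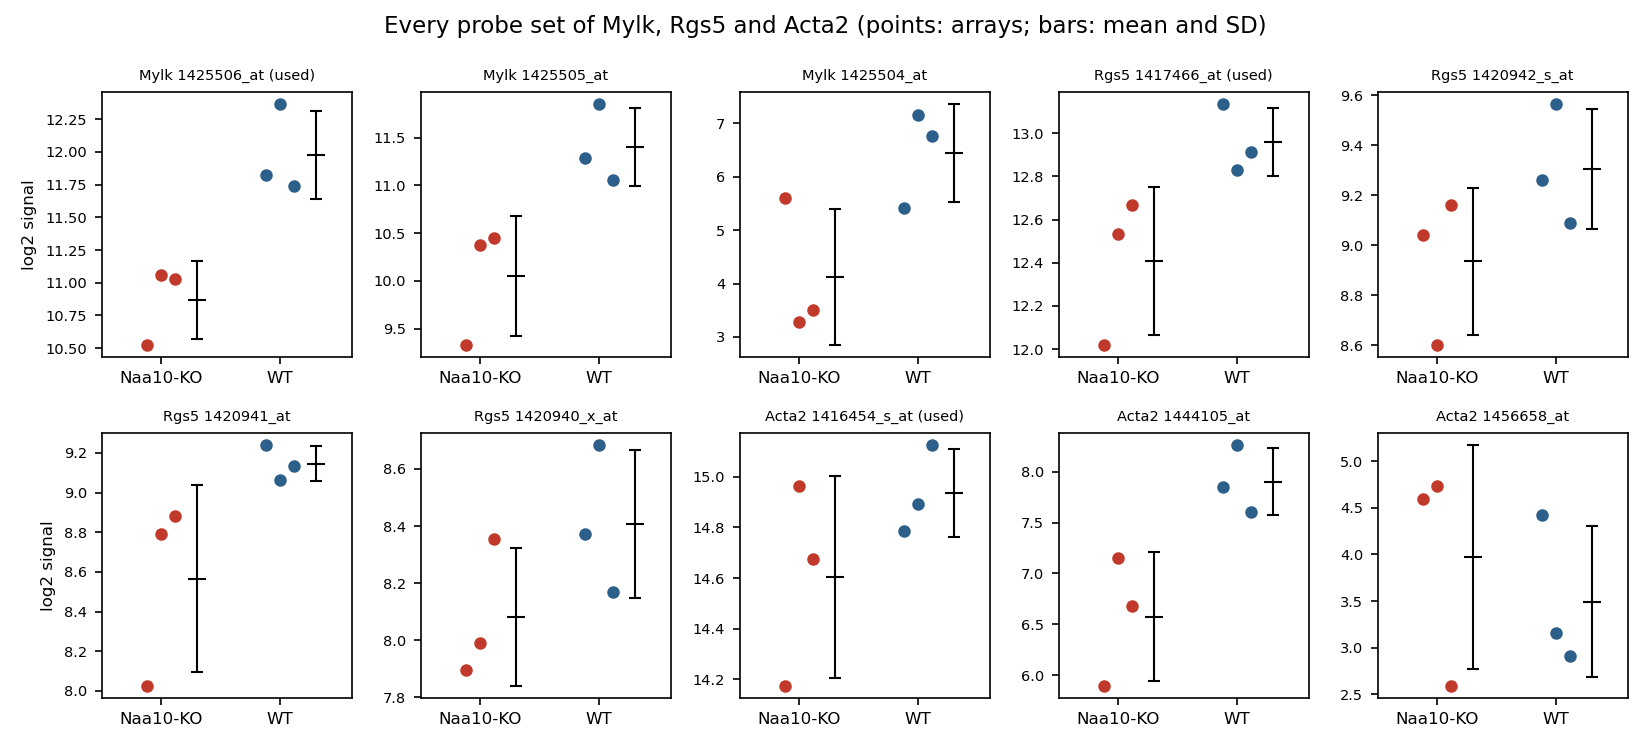
Log2 signals of all probe sets of Mylk, Rgs5 and Acta2, with points for single arrays, Naa10-KO left and WT right, and bars for the mean and SD of n = 3. Both brighter Mylk probe sets and the probe set used for Rgs5 show no overlap, whereas the brightest Acta2 probe set overlaps and its dimmest has the opposite order of means.

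Agreement between probe sets was incomplete across the vessel genes. The 40 genes had 74 probe sets, and 21 genes had more than 1. Of the 34 probe sets not used, 25 had the sign of the one used and 9 had the opposite sign. None of the 74 passed over all probe sets, and the lowest adjusted p was 0.450.

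Few vessel genes outside the 40 passed the test. Of 185 measured genes on the other vessel lists, 1 rose (Tpm1), against 0.0879% of all genes, and 0 fell, against 0.0275%, at an adjusted p of 0.05. In these lists 101 means were higher and 84 lower, and the median difference was 0.016. At an unadjusted p of 0.05 there were 17, or 9.19%, against 9.20% of all genes. Tpm1, a tropomyosin of smooth and skeletal muscle, averaged 13.29 ± 0.18 in Naa10-KO fat and 10.21 ± 0.30 in WT fat (adjusted p = 0.0408). It stood on the list of contractile smooth muscle genes with Des (1.40) and Tpm2 (0.92), which skeletal muscle also expresses. Their means were higher in Naa10-KO fat, as were those of the muscle markers given above. The part of skeletal muscle RNA in these values was not tested. Over the 25 genes of the contractile list, 12 means were higher and 13 lower in Naa10-KO fat, with a median difference of -0.057. Arrays did not overlap for 36% of them, 5 higher and 4 lower, against 18.1% of all genes (10% higher and 8.14% lower). Synpo2, an actin-bundling protein of that list, was lower on all Naa10-KO arrays with a difference of -0.76 (adjusted p = 0.465). Myh11, the smooth muscle myosin heavy chain, differed by -0.06 at low signal.

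Signalling lists held no call, against 0.115% of all genes called, a share at which most lists of this size would hold none. In the Notch and BMP list, 0 of 24 passed and the median was 0.042. Hey1, a target of Notch, averaged 7.55 ± 0.27 in Naa10-KO fat and 6.85 ± 0.15 in WT fat (adjusted p = 0.473), and Id1, a target of BMP signalling, differed by 0.59. In the list of other VEGF, angiopoietin and PDGF genes, 0 of 20 passed. Pdgfra, a PDGF receptor of fat progenitors, averaged 11.21 ± 0.25 in Naa10-KO fat and 10.61 ± 0.03 in WT fat (adjusted p = 0.476). Vegfd, a second ligand of Flt4, differed by -0.44. Hypoxia genes had 0 of 16 past the threshold, against 0.115% of all genes, and 0 of 16 without overlap, against 18.1%. Among them were Pfkfb3, a glycolytic regulator, at -0.40 and Adm, adrenomedullin, at -0.35.

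No gene passed the test in the lists that follow vessel type, against 0.115% of all genes. Capillary genes of lipid transport had 0 of 10 past the threshold, 9 means higher and 1 lower, a median of 0.067 and Gpihbp1, the carrier of lipoprotein lipase on capillaries, averaging 12.06 ± 0.03 in Naa10-KO fat and 11.98 ± 0.37 in WT fat. Fabp5, a fatty acid binding protein of capillary endothelium and macrophages, was the 1 with a lower mean, at -0.56. Among 14 arterial and venous genes, Selp, the P-selectin of venous endothelium, differed by 0.74 and Lrg1 by -0.96, both without overlap. They were the only genes of that list without overlap, or 14.3% against 18.1% of all genes. Of 20 other endothelial transcription factors, Mef2c, which skeletal muscle also expresses, differed by 0.65 and Klf2, a factor induced by flow, by 0.33. Junction and other pan-endothelial genes had 11 means higher and 10 lower, with Procr, the protein C receptor, at 0.71. Of 15 other pericyte genes 0 passed, 8 means were higher and 7 lower, with Ndufa4l2 at -2.10 from low signals and Abcc9, a potassium channel subunit, at 0.44.

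Basement membrane genes of vessels had 8 of 11 means lower in Naa10-KO fat, against 48.6% of all genes. Of the 11, 5 were lower on all Naa10-KO arrays, against 8.14% of all genes, and 0 passed the threshold, against 0.115%. The list mean was 10.44 on Naa10-KO replicate 1, the array with the Gapdh 3′ excess given above, 10.98 and 10.76 on the other Naa10-KO arrays, and 10.95 to 11.28 on WT arrays. The part of RNA quality in these values was not tested. Hspg2, the proteoglycan perlecan, averaged 9.07 ± 0.53 in Naa10-KO fat and 10.06 ± 0.43 in WT fat (adjusted p = 0.530). Nid2, the matrix linker nidogen 2, differed by -0.78 and the collagen chains Col4a2 and Col4a1 by -0.87 and -0.48. These proteins are also made by adipocytes and fibroblasts, and the fibroblast markers had list means of 10.85 to 11.48 on Naa10-KO arrays and 11.36 to 11.55 on WT arrays.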

How the data were processed

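Total RNA of inguinal fat, 3 µg per mouse, was measured on Affymetrix mouse arrays, per the labels. The authors deposited 1 log2 signal per probe set and array for 45101 probe sets. On the linear scale the mean trimmed by 2% at each end was 500 on all 6 arrays, and no source used here names the software. Medians of single arrays ran from 5.78 to 5.96. Values were used as deposited, with no filter on low values in the main test. Precision is limited by how many arrays there are.

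Probe sets were named through a platform annotation of GEO: 34945 had 1 gene, 932 several and 9160 none, beside 64 controls. No probe set was named for Naa10, which was not analysed here, so genotype labels were not checked against it. The genotypes were tested in R 4.3.3 with lmFit and eBayes of limma 3.58.1, 2-sided and with genotype as the only term, and p-values of 18193 genes were adjusted together (Benjamini-Hochberg, 0.05). Each difference subtracts WT from Naa10-KO and has the moderated SE, and 95% intervals use the moderated degrees of freedom and no adjustment. The fit was also run on simulated arrays with independent normal noise, as a check of the code. That run leaves out effects shared by an array, such as RNA quality, and is no support for the results.

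The 40 genes and the other lists were chosen with earlier results of these data known. All 40 are named, and other lists give up to 4 genes with the smallest unadjusted p, plus Vegfa, Lyve1, Myh11 and Gpihbp1. List members are described by counts and medians, with no test of the list. Probe sets and windows shown beside them were chosen after their values were seen. Sequences are from RefSeq, GRCm38.p6, which held a window for 27 of the 40 genes.

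Replicate numbers of the labels name different mice, and deviations from the group means correlated at -0.03 to -0.01 between arrays of the same number, so the numbers were not taken as pairs.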

Additional observations from a re-analysis of the deposited data

How the results depend on the processing

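Of the 40 vessel genes, 0 were called higher under any alternative and 0 were called lower in all alternatives except trend and robust options, which called 1 (Mylk, adjusted p = 0.0191). The numbers of genes called over the whole table moved more: higher and lower calls were 16 and 5 with all arrays, 17 genes in total with quantile normalization (3 of them lower), 70 higher with low genes filtered out, 104 and 13 with values floored at 5.86, 0 and 0 with the mean of all probe sets, 102 and 35 with trend and robust options, and 27 higher with array weights. With the replicate number as a block they were 0 and 0, with 1276 genes at an unadjusted p of 0.05, and no vessel gene was called (lowest adjusted p = 0.614, Lmod1). With 1 array left out, calls over all genes lay between 0 and 29 higher and between 0 and 1 lower; they were 29 and 1 without WT replicate 3 and 0 without any other array, where 1220 to 1716 genes had an unadjusted p of 0.05, and vessel genes called were 0 in each direction. The filter on low values kept 35 of the 40 genes and the floor left 37 to test. Medians with 1 array left out lay between -0.44 and -0.10 for mural genes, -0.31 and -0.055 for ligands (-0.055 without Naa10-KO replicate 3, and -0.09 without WT replicate 3), -0.04 and 0.10 for blood endothelium and 0.27 and 0.49 for lymphatic genes. With the filter the lymphatic median, then over Flt4 and Pdpn, was 0.83. Relative to the mean of Pecam1, Cdh5, Tie1 and Erg on each array, the medians were 0.04 for blood endothelium, 0.39 for lymphatic genes, -0.23 for ligands and -0.23 for mural genes. Subtracting that mean moves the difference of every gene by the same amount, so contrasts between the groups could not change.

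Small differences changed sign. With the mean of all probe sets the values were 0.15 for Angpt2, 0.27 for Cdh5, 0.57 for Dll4, 0.088 for Eng, -0.020 for Notch4 and -0.11 for Sox17. Array weights gave 0.042 for Cspg4 and 0.010 for Esam, the floor gave 0.15 for Dll4, quantile normalization gave -0.020 for Vwf, and leaving out x_at and s_at probe sets gave -0.25 for Sox17. Other probe sets gave 0.48 for Acta2, 0.38 for Angpt2, 0.64 for Cdh5, 1.21 for Dll4, 0.32 for Eng, -0.40 for Notch4, -0.054 and -0.11 for Nrp1 and -0.25 for Sox17. With 1 array left out, values ranged from -0.33 to 0.21 for Angpt2, -0.22 to 0.048 for Cdh5, -0.35 to 0.064 for Cspg4, -0.75 to 0.58 for Dll4, -0.24 to 0.042 for Egfl7, -0.38 to 0.046 for Eng, -0.42 to 0.087 for Esam and -0.016 to 0.15 for Kdr. They ranged from -0.14 to 0.051 for Notch3, -0.24 to 0.47 for Notch4, -0.28 to 0.20 for Sox17, -0.48 to 0.15 for Tagln, -0.56 to 0.68 for Tie1 and -0.11 to 0.21 for Vwf. The cause of these changes was not tested. Signs of Mylk, Rgs5, Flt1, Pecam1, Flt4 and Prox1 were the same in all alternatives run. So were those of other genes with small differences, such as Pdgfb (0.11) and Nos3 (-0.16). The filter on low values, the trend and robust options and the replicate block leave a log2 difference as it was, so they could not turn a sign.

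Signal over background is unknown for Tie1, Prox1, Cnn1 and the other genes near or under 5.86. With 3 arrays per group, the intervals of 12 of the 40 genes included differences of more than 1 log2 unit in size. That count reflects the size of a difference as well as its precision, as for Mylk (-1.75 to -0.46).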
